A study of Mus musculus with 4 samples.

Results

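The interleukin-1 family genes described here are 10 of the 37574 genes in the authors' deposited table. They were chosen by name: the agonist ligands Il1a, Il1b, Il36a, Il36g, Il33 and Il18, the antagonist Il1rn, the signalling receptor Il1r1, its accessory chain Il1rap and the decoy receptor Il1r2. All 10 were found, Il36a and Il36g under their older symbols Il1f6 and Il1f9, and all 10 passed the authors' filter on low values and were tested. The cells came from oral cancers of C57BL/6 mice given 4NQO, a chemical carcinogen, for 26 weeks. The mice carried the alleles Bmi1CreER and tdTomato, and both fractions came from tumours collected 24 hours after tamoxifen. Cells carrying EpCAM, an adhesion protein of epithelia, were sorted into Tomato-positive cells, in which the tamoxifen-dependent Cre driven by Bmi1 had switched on the reporter, and Tomato-negative cells, in which the sort found no reporter. Whether every cell with an active Bmi1 promoter was marked is not stated. Each fraction was sequenced as 2 samples. The labels do not say whether these came from separate animals, or how many tumours were joined.

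All values are the authors' FPKM, in which fragments are divided by the length of the transcript and the size of the library. Each gene has 1 value per fraction, which joins both samples. They carry no SD, and the depth of the samples is unknown, so no interval is given. A gene was called where its q-value in the authors' deposited table was below 0.05, and log2 folds are Tomato-positive over Tomato-negative. Of 16219 tested genes, 13.0% were called higher, 14.2% lower and 27.2% in either direction, and the median log2 fold of tested genes was 0.02. As a check of the sort, Bmi1 stood at 7.03 FPKM in Tomato-positive and 3.11 FPKM in Tomato-negative cells, and Epcam at 46.4 FPKM in Tomato-positive and 25.1 FPKM in Tomato-negative cells. All 10 keratinocyte markers on the list were present in both fractions, from 46.4 to 13864.5 FPKM in Tomato-positive and from 25.1 to 3114 FPKM in Tomato-negative cells.

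Interleukin-1 alpha and beta are inflammatory cytokines that bind the same receptor, Il1r1, which then recruits the accessory chain Il1rap and signals through Myd88 to NF-kappa-B. The receptor antagonist encoded by Il1rn occupies Il1r1 without recruiting the accessory chain, and Il1r2 binds the cytokines but lacks the intracellular signalling domain. Keratinocytes hold interleukin-1 alpha, interleukin-33 and interleukin-18 as stored proteins, and the IL-36 cytokines are made mainly by stratified epithelia. Interleukin-1 beta and interleukin-18 are made as precursors that caspase-1 cuts in an inflammasome.

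The starts of the 5 called members are shown first, since these are the genes on which the results turn. RefSeq promoter sequences (build GRCm38.p6, not the mm9 of the expression table) were found for 9 of the 10 members and for 13 starts in all. Each line gives the 150 bases before a start, 5′ to 3′, with matches to TGANTCA, the AP-1 pattern, or to a loose NF-kappa-B pattern (GGG, any 5 bases, then CC) in capitals where they lie wholly before the start. For Il1rn the first of its 3 starts is shown.
Il1b, chr2:129371140-129371289, minus strand: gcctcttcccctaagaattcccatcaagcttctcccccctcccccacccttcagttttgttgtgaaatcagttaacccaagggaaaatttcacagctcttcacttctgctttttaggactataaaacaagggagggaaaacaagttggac
Il1a, chr2:129309973-129310122, minus strand: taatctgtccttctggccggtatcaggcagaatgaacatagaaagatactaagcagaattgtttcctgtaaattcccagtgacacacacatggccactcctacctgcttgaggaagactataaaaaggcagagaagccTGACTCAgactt
Il1rn, chr2:24336710-24336859, plus strand: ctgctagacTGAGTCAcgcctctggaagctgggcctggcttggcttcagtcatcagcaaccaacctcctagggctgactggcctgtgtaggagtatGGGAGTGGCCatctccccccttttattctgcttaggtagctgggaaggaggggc
Il1r2, chr1:40085943-40086092, plus strand: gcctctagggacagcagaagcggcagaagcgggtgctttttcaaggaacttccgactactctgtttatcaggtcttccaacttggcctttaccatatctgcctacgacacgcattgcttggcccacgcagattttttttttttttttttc
Il18, chr9:50554550-50554699, plus strand: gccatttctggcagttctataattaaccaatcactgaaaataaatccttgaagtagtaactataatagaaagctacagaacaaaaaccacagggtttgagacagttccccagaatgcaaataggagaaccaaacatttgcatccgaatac
Both strands were searched, over the 250 bases before and 50 bases after each start. TGANTCA stood 12 bases before the Il1a start and 141 bases before the first of the 3 Il1rn starts. It was held by 2 of the 13 member promoters, or 15.4%, and by 7.81% of the 32851 promoters in the RefSeq table; the 13 include several starts of 1 gene. The looser NF-kappa-B pattern was held by 6 of the 13, or 46.2%, and by 50.8% of all promoters. No match of one pattern overlapped a match of the other. The windows shown for Il1b, Il1r2 and Il18 hold neither pattern, which says only that these letters are not in those windows.

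The interleukin-1 agonists were higher in Tomato-positive cells, and the change in Il1b was the widest of the 10 members. Il1b, which encodes interleukin-1 beta, stood at 240.1 FPKM in Tomato-positive cells, against 5.78 FPKM in Tomato-negative cells. This was a log2 fold of 5.38, or 41.6-fold, with q = 0.000405 in the authors' deposited table. That q-value is the lowest in the table and is shared by 2004 genes, so it does not rank them. Among tested genes above 0 in both fractions, the log2 fold of Il1b lay at percentile 99.8. Its level lay at percentile 95.6 of tested genes in Tomato-positive cells and at percentile 37.1 in Tomato-negative cells. In bulk samples, more cells that make a transcript and more transcript per cell cannot be told apart.

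Il1a, which encodes interleukin-1 alpha, stood at 40.2 FPKM in Tomato-positive and 6.78 FPKM in Tomato-negative cells. The log2 fold of 2.57, at percentile 98.4 of tested genes, had q = 0.000405 in the authors' deposited table. The ratio of Il1b to Il1a was 5.98 in Tomato-positive cells and 0.852 in Tomato-negative cells. These ratios have no error, since the table gives 1 value per fraction. The deposited locus of Il1b (chromosome 2, 129190305 to 129201484, mm9) also holds Gm14047, at 0.693 FPKM in Tomato-positive and 0.0952 FPKM in Tomato-negative cells. The locus of Il1a (chromosome 2, 129123105 to 129135708, mm9) also holds Gm14023, at 0.756 FPKM in Tomato-positive and 0.920 FPKM in Tomato-negative cells. Both partners were far below the cytokine genes, and whether reads were assigned by strand is not given in the sources used here.

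**Figure D1:**
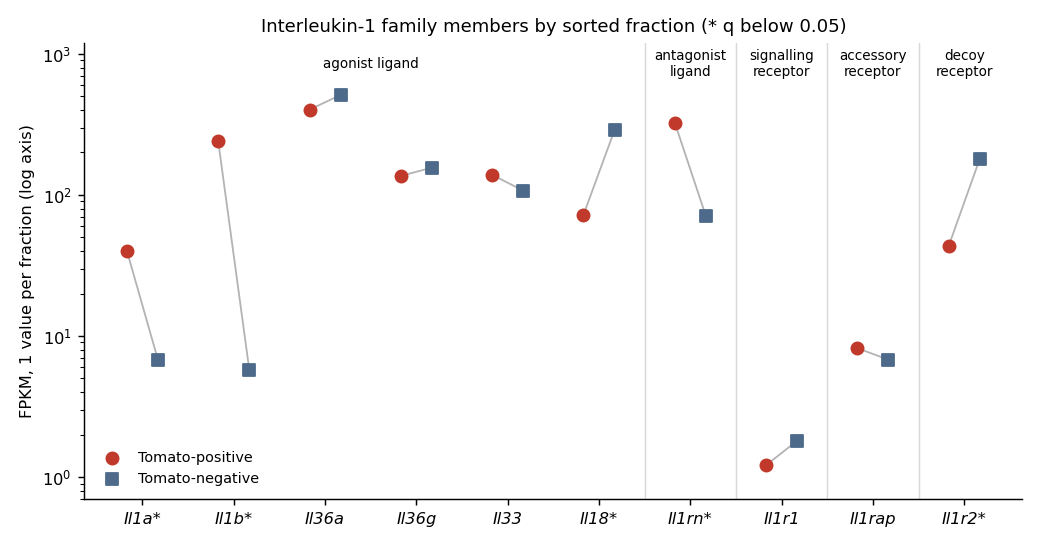
FPKM of the 10 members on a log axis, with 1 point per gene and fraction (circles for Tomato-positive, squares for Tomato-negative) and a line joining the points of a gene; an asterisk marks q below 0.05. Il1a, Il1b and Il1rn are higher and Il18 and Il1r2 lower in Tomato-positive cells, while the other 5 lie near each other.

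Among the other agonists, 3 did not pass the test and 1 fell. Il36a (chromosome 2, 24070937 to 24081222, mm9) was the most abundant member in both fractions, at 402 FPKM in Tomato-positive and 512 FPKM in Tomato-negative cells. Its log2 fold of -0.35 did not pass, with q = 0.177 in the authors' deposited table. Il36g (chromosome 2, 24041995 to 24049088) stood at 136 FPKM in Tomato-positive and 156 FPKM in Tomato-negative cells, a log2 fold of -0.19 with q = 0.459 in the authors' deposited table. Il33 (chromosome 19, 29999603 to 30035208), a nuclear alarmin of barrier epithelia, stood at 139 FPKM in Tomato-positive and 107 FPKM in Tomato-negative cells, a log2 fold of 0.37 with q = 0.478 in the authors' deposited table. All 3 were abundant in both fractions, between percentiles 92.8 and 97.3 of tested genes in Tomato-positive cells and between 91.0 and 97.8 in Tomato-negative cells. A q-value above the threshold does not show that their levels were equal.

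Il18 (chromosome 9, 50383377 to 50389942, mm9) was the agonist that fell. It stood at 72.2 FPKM in Tomato-positive cells, against 288 FPKM in Tomato-negative cells. The log2 fold was -1.995 with q = 0.000405 in the authors' deposited table, at percentile 5.9 of tested genes. By level Il18 ranked 6 of the 10 members in Tomato-positive cells and 2 in Tomato-negative cells.

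Summed over the 6 agonists, the transcripts came to 1029.7 FPKM in Tomato-positive and 1075 FPKM in Tomato-negative cells. The sums were close while the makeup was not. Il1a and Il1b together made up 27.2% of the sum in Tomato-positive cells and 1.17% in Tomato-negative cells. Il18 made up 7.01% in Tomato-positive and 26.8% in Tomato-negative cells. Il36a and Il36g together were the larger part in both, at 52.3% in Tomato-positive and 62.1% in Tomato-negative cells. FPKM is scaled by length, so levels of different genes can be summed, but these shares have no error and no test.

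**Figure D2:**
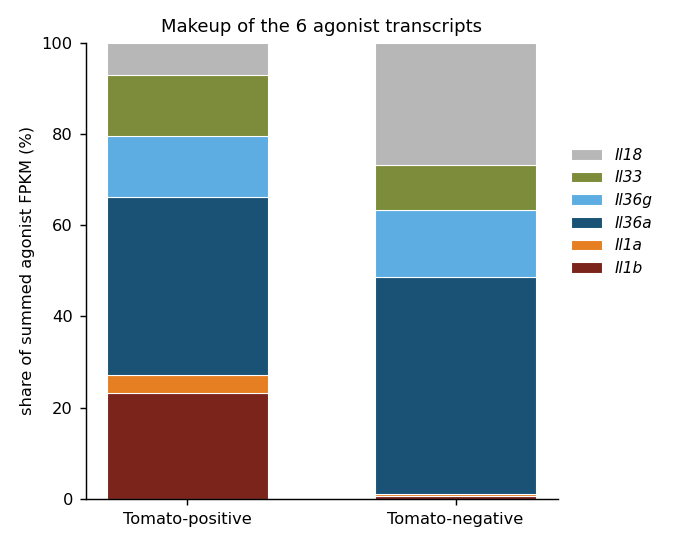
Share of the summed FPKM of the 6 agonist transcripts held by each, in percent, with 1 stacked bar for Tomato-positive and 1 for Tomato-negative cells. The Il1b and Il1a segments together reach 27.2% in Tomato-positive and 1.17% in Tomato-negative cells, and the Il18 segment is 7.01% in Tomato-positive and 26.8% in Tomato-negative cells.

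The antagonist and the decoy moved in opposite directions. Il1rn (chromosome 2, 24192372 to 24207014, mm9), the receptor antagonist, rose with the agonists it competes with. It stood at 325 FPKM in Tomato-positive and 71.0 FPKM in Tomato-negative cells, a log2 fold of 2.19 with q = 0.000405 in the authors' deposited table. Il1r2, the decoy receptor, fell to 43.6 FPKM in Tomato-positive cells, against 180.3 FPKM in Tomato-negative cells. Its log2 fold was -2.05 with q = 0.000405 in the authors' deposited table. The deposited locus of Il1r2 (chromosome 1, 40133072 to 40182064, mm9) also holds Gm16894, at 0.644 FPKM in Tomato-positive and 1.34 FPKM in Tomato-negative cells.

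The signalling receptor transcripts were low in both fractions. Il1r1 (chromosome 1, 40281924 to 40373043, mm9) was the least abundant member, at 1.21 FPKM in Tomato-positive and 1.81 FPKM in Tomato-negative cells. Its log2 fold of -0.58 did not pass, with q = 0.121 and an unadjusted p = 0.0419 in the authors' deposited table. Il1rap (chromosome 16, 26581789 to 26755588), the accessory chain shared by the receptors for interleukin-1, interleukin-33 and IL-36, stood at 8.20 FPKM in Tomato-positive and 6.79 FPKM in Tomato-negative cells. Its log2 fold of 0.27 did not pass, with q = 0.335 in the authors' deposited table.

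Set against each other per length, antagonist transcripts exceeded agonist transcripts by less in Tomato-positive cells. The ratio of Il1rn to the sum of Il1a and Il1b was 1.16 in Tomato-positive cells (325 to 280.3 FPKM) and 5.65 in Tomato-negative cells (71.0 to 12.6 FPKM). The difference of the log2 ratios, Tomato-positive minus Tomato-negative, was -2.29. It was -3.18 with Il1b alone as the agonist and -0.37 with Il1a alone. The ratio of decoy to signalling receptor, Il1r2 to Il1r1, was 35.9 in Tomato-positive and 99.7 in Tomato-negative cells, a log2 difference of -1.47. Decoy transcripts stood above those of Il1r1 in both fractions. No test can be given for a ratio of 2 genes from 1 value per fraction.

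Counted over the members, 3 of 10 were called higher (30.0%, against 13.0% of tested genes) and 2 lower (20.0%, against 14.2%). The other 5 did not pass. The median log2 fold of the members was 0.04, beside 0.02 over all tested genes. By level, the order in Tomato-positive cells was Il36a, Il1rn, Il1b, Il33, Il36g, Il18, Il1r2, Il1a, Il1rap and Il1r1. In Tomato-negative cells it was Il36a, Il18, Il1r2, Il36g, Il33, Il1rn, Il1rap, Il1a, Il1b and Il1r1. With no spread between samples, neighbours in these orders cannot be said to differ.

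Of the 11 other family genes on the list, 8 were tested, 1 was called higher (12.5%, against 13.0% of all tested genes) and 4 lower (50%, against 14.2%), with a median log2 fold of -0.83. The share called higher was thus near the background. Those called lower were mostly of the IL-36 branch. Il36b (listed as Il1f8), another IL-36 agonist, stood at 63.0 FPKM in Tomato-positive and 136.5 FPKM in Tomato-negative cells, with q = 0.000405 in the authors' deposited table. Il36rn (listed as Il1f5), the IL-36 receptor antagonist, fell to 88.5 FPKM in Tomato-positive cells, against 230.2 FPKM in Tomato-negative cells, with the same q-value in the authors' deposited table. Il1rl2, the IL-36 receptor chain, stood at 7.74 FPKM in Tomato-positive and 14.1 FPKM in Tomato-negative cells, with q = 0.000758 in the authors' deposited table. The antagonists of the IL-1 and IL-36 branches thus had log2 folds of opposite sign, 2.19 for Il1rn and -1.38 for Il36rn. The ratio of Il36rn to the sum of Il36a, Il36b and Il36g was 0.147 in Tomato-positive and 0.286 in Tomato-negative cells. The ratio of Il18bp, the inhibitor of interleukin-18, to Il18 ran the other way, at 0.0203 in Tomato-positive and 0.00890 in Tomato-negative cells.

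The receptor chains for interleukin-18 were low. Il18rap, its accessory chain, rose to 2.21 FPKM in Tomato-positive cells, against 0.383 FPKM in Tomato-negative cells, with q = 0.000405 in the authors' deposited table. Il18r1, the binding chain, stood at 0.298 FPKM in Tomato-positive and 1.06 FPKM in Tomato-negative cells, with q = 0.0435 in the authors' deposited table. Il18bp, a secreted inhibitor of interleukin-18, stood at 1.47 FPKM in Tomato-positive and 2.56 FPKM in Tomato-negative cells and did not pass; its q-value in the authors' deposited table was 0.152. Il1f10 did not pass either, at 1.34 FPKM in Tomato-positive and 2.0 FPKM in Tomato-negative cells. Il1rl1, the interleukin-33 receptor, was not tested, at 0.191 FPKM in Tomato-positive and 0.652 FPKM in Tomato-negative cells, so transcripts of its ligand Il33 were far above those of the receptor in both fractions.

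Genes that lie side by side moved differently. On chromosome 2, from 24008680 to 24207014 (mm9), 6 family genes lie within 198 kb in the order Il36b, Il36g, Il36a, Il36rn, Il1f10 and Il1rn. Il1rn, at one end, was called higher, Il36b and Il36rn were called lower, and the other 3 did not pass. The cluster on chromosome 1, from 40133072 to 40608550 (mm9), holds 6 receptor genes within 475.5 kb in the order Il1r2, Il1r1, Il1rl2, Il1rl1, Il18r1 and Il18rap. Il18rap, at the far end from Il1r2, was the 1 called higher, and Il1r2, Il1rl2 and Il18r1 were called lower. Il1a and Il1b, whose deposited loci span 78.4 kb elsewhere on chromosome 2, were both called higher.

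**Figure D3:**
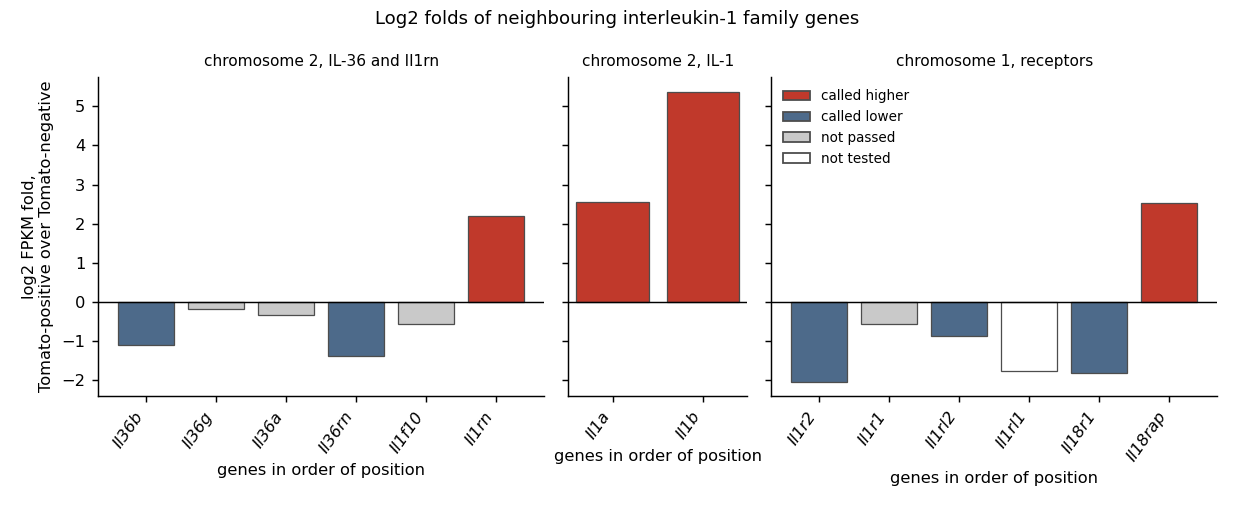
Log2 FPKM fold, Tomato-positive over Tomato-negative, of family genes in order of position in 3 stretches of the genome, with 1 bar per gene coloured by its call. Il1rn (2.19) and Il18rap (2.53) stand up at the ends of stretches in which the other bars point down, and Il1a (2.57) and Il1b (5.38) both stand up.

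The genes that process and release these cytokines did not move together. Of 33 genes on the inflammasome and processing list, 22 were tested, 3 were called higher (13.6%, against 13.0% of all tested genes) and 7 lower (31.8%, against 14.2%), with a median log2 fold of -0.50. The share called higher was near the background, so the 3 genes given next are single genes and no result about the list. Nlrp3, an inflammasome sensor, rose to 7.52 FPKM in Tomato-positive cells, against 0.210 FPKM in Tomato-negative cells, with q = 0.000405 in the authors' deposited table. Mefv, which encodes the sensor pyrin, stood at 1.65 FPKM in Tomato-positive and 0.186 FPKM in Tomato-negative cells, with q = 0.00172 in the authors' deposited table. Capn2, a calpain subunit of a protease family that cuts interleukin-1 alpha, stood at 40.0 FPKM in Tomato-positive and 22.5 FPKM in Tomato-negative cells and was called higher.

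Lower transcripts on this list included Txnip, a thioredoxin-binding protein, at 24.7 FPKM in Tomato-positive and 139 FPKM in Tomato-negative cells. Cma1, a mast cell chymase, stood at 0.966 FPKM in Tomato-positive and 4.94 FPKM in Tomato-negative cells. Among the gasdermins, whose cleaved forms make pores in the membrane, Gsdmd stood at 1.60 FPKM in Tomato-positive and 4.99 FPKM in Tomato-negative cells, and Gsdma at 51.1 FPKM in Tomato-positive and 150.2 FPKM in Tomato-negative cells, and both were called lower. Gsdmc, at 154 FPKM in Tomato-positive and 228 FPKM in Tomato-negative cells, did not pass (q = 0.0619 in the authors' deposited table), nor did Capn1, at 98.3 FPKM in Tomato-positive and 110.5 FPKM in Tomato-negative cells. Casp1, the protease that matures interleukin-1 beta and interleukin-18, is named here after its values were seen. It stood at 78.1 FPKM in Tomato-positive and 71.4 FPKM in Tomato-negative cells and did not pass, with q = 0.656 in the authors' deposited table. Its adaptor Pycard, named for the same reason, was called lower, at 79.5 FPKM in Tomato-positive and 182 FPKM in Tomato-negative cells.

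Signalling genes between the receptor and NF-kappa-B were mostly not called. All 25 on the list were tested, 3 were called higher (12.0%, against 13.0% of all tested genes) and 1 lower (4.00%, against 14.2%), with a median log2 fold of -0.01. The 3 were genes of NF-kappa-B subunits: Nfkb2 at 10.3 FPKM in Tomato-positive and 4.79 FPKM in Tomato-negative cells, Nfkb1 at 31.6 FPKM in Tomato-positive and 18.9 FPKM in Tomato-negative cells, and Rel at 3.15 FPKM in Tomato-positive and 1.84 FPKM in Tomato-negative cells. The subunit genes Rela (28.7 FPKM in Tomato-positive and 26.0 FPKM in Tomato-negative cells) and Relb (5.07 FPKM in Tomato-positive and 3.375 FPKM in Tomato-negative cells) did not pass. Rela and Relb are named here after their values were seen. Peli1, a ubiquitin ligase of the pathway, fell to 9.77 FPKM in Tomato-positive cells, against 23.3 FPKM in Tomato-negative cells. Sqstm1, at 207 FPKM in Tomato-positive and 147 FPKM in Tomato-negative cells, and Tollip, at 31.6 FPKM in Tomato-positive and 37.8 FPKM in Tomato-negative cells, did not pass. The share called higher on this list was close to that of all tested genes.

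Genes that interleukin-1 is known to induce in epithelia were higher in larger number. Of 33 on the list, 29 were tested, 20 were called higher (69.0%, against 13.0% of tested genes) and 2 lower (6.90%, against 14.2%), with a median log2 fold of 2.0. Like the other lists, this one was chosen with earlier results of these data known, so its share is a description only. Many other signals, such as tumour necrosis factor and bacterial products, induce the same genes. Cxcl2, a neutrophil-attracting chemokine, stood at 112 FPKM in Tomato-positive and 0.739 FPKM in Tomato-negative cells. Its relatives Cxcl3, at 20.9 FPKM in Tomato-positive and 0.346 FPKM in Tomato-negative cells, and Cxcl1, at 22.5 FPKM in Tomato-positive and 0.728 FPKM in Tomato-negative cells, were called higher too. Ptgs2, the inducible enzyme of prostaglandin synthesis, stood at 36.3 FPKM in Tomato-positive and 0.976 FPKM in Tomato-negative cells.

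The 2 response genes called lower were Vcam1, an adhesion protein, at 0.623 FPKM in Tomato-positive and 2.55 FPKM in Tomato-negative cells, and the defensin Defb4, at 1028 FPKM in Tomato-positive and 2184 FPKM in Tomato-negative cells. Nfkbia, the inhibitor of NF-kappa-B, did not pass, at 125 FPKM in Tomato-positive and 115 FPKM in Tomato-negative cells (q = 0.677 in the authors' deposited table), nor did Sod2, at 20.1 FPKM in Tomato-positive and 26.1 FPKM in Tomato-negative cells. S100a8 and S100a9 stand both in this list and in that of neutrophil markers. Without them, a choice made after seeing the data, 18 of 27 were called higher (against 13.0% of all tested genes) and 2 lower (against 14.2%). Leaving out 2 shared genes does not separate RNA of keratinocytes from that of neutrophils in the other genes. The part of neutrophil RNA in this list was not tested.

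**Figure D4:**
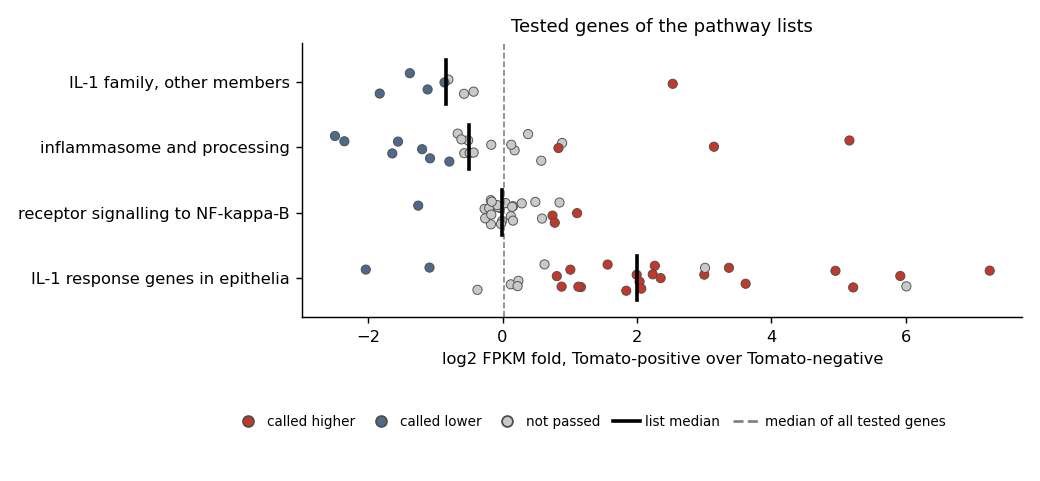
Log2 FPKM fold, Tomato-positive over Tomato-negative, of the tested genes of 4 pathway lists above 0 in both fractions, with 1 point per gene coloured by its call, a black bar at each list median and a dashed line at the median of all tested genes. The median of the response genes lies at 2.0 and that of the signalling genes at -0.01.

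Markers of several other cell types differed between the fractions in the same comparison. Neutrophils make much Il1b, and of 18 neutrophil markers 14 were tested. Of these, 10 were called higher (71.4%, against 13.0% of all tested genes) and none lower (against 14.2%), with a median log2 fold of 4.41. Without S100a8 and S100a9, which keratinocytes also make, 8 of 12 were called higher (66.7%, against 13.0%) and none lower (against 14.2%). The markers then summed to 145 FPKM in Tomato-positive and 15.1 FPKM in Tomato-negative cells. In that reduced list single markers ranged from 0.124 to 24.0 FPKM in Tomato-positive and from 0.0630 to 4.35 FPKM in Tomato-negative cells. S100a8 itself stood at 6383 FPKM in Tomato-positive and 520.4 FPKM in Tomato-negative cells, and S100a9 at 4506 FPKM in Tomato-positive and 882 FPKM in Tomato-negative cells. The 8 others called higher were Csf3r, Cxcr2, Retnlg, Trem1, Clec4d, Clec4e, Hdc and Stfa2l1. Among them Csf3r, the receptor for granulocyte colony-stimulating factor, stood at 17.1 FPKM in Tomato-positive and 0.637 FPKM in Tomato-negative cells, and the lectin receptor Clec4e at 23.3 FPKM in Tomato-positive and 0.957 FPKM in Tomato-negative cells. The granule genes Mpo, Elane and Ngp and the surface marker gene Ly6g were not tested, and each lay below 1 FPKM in both fractions. Of these, Ngp and Ly6g read lower in Tomato-positive cells, and Mpo and Elane read higher. Camp was tested and did not pass, at 0.645 FPKM in Tomato-positive and 0.954 FPKM in Tomato-negative cells. Mmp8, Fpr1 and Fpr2 did not pass either, though each read higher in Tomato-positive cells. Single markers of this paragraph other than S100a8 and S100a9 were named after their values were seen. The part of neutrophil RNA in the higher Il1b, Il18rap and Nlrp3 was not tested.

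Macrophages also make Il1b and Il18. Of 15 monocyte and macrophage markers, 3 were called higher (20.0%, against 13.0% of all tested genes) and 9 lower (60.0%, against 14.2%). Their sums were 323 FPKM in Tomato-positive and 476 FPKM in Tomato-negative cells. Lyz2, among the 9 lower, stood at 47.1 FPKM in Tomato-positive and 164 FPKM in Tomato-negative cells. Among the 3 higher, Cd14 stood at 53.1 FPKM in Tomato-positive and 5.91 FPKM in Tomato-negative cells. Ly6c2, also higher, stood at 33.0 FPKM in Tomato-positive and 19.5 FPKM in Tomato-negative cells. Cd14 and Ly6c2 were named after their values were seen. Of 6 tested markers of Langerhans and dendritic cells, 0 were called higher (against 13.0% of all tested genes) and 3 lower (against 14.2%). With 6 tested genes, the 0 called higher says little. The lower genes were led by Cd74 (72.5 FPKM in Tomato-positive and 303 FPKM in Tomato-negative cells) and H2-Ab1 (60.0 FPKM in Tomato-positive and 156 FPKM in Tomato-negative cells). The sums of this list were 138.5 FPKM in Tomato-positive and 470.0 FPKM in Tomato-negative cells. Mast cells, which carry Il1rl1, had 1 of 7 tested markers higher, Hdc (14.3%, near the 13.0% of all tested genes). Another 4 were lower (57.1%, against 14.2%), with a median log2 fold of -1.96 over the list. The sums were 25.3 FPKM in Tomato-positive and 27.4 FPKM in Tomato-negative cells. Hdc, which also stands in the neutrophil list, made up 18.6 FPKM of the sum in Tomato-positive cells and 0.562 FPKM in Tomato-negative cells. Without it the sums were 6.74 FPKM in Tomato-positive and 26.8 FPKM in Tomato-negative cells. The part of these cells in the lower Il18, Il1r2 and Cma1 was not tested.

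Fibroblast markers were called lower in 10 of 10, against 14.2% of all tested genes, and fibroblasts carry Il1r1. Their sums were 125 FPKM in Tomato-positive and 691 FPKM in Tomato-negative cells. Of the endothelial markers 5 of 10 were called higher (against 13.0% of all tested genes) and 1 lower (against 14.2%). Their sums were 87.6 FPKM in Tomato-positive and 65.4 FPKM in Tomato-negative cells, and endothelial cells can make Il33. Of 12 tested T and NK lymphocyte markers 2 were higher, Trbc1 and Trbc2, and 2 lower. Both shares were 16.7%, near the 13.0% and 14.2% of all tested genes. The median log2 fold was -2.24, with sums of 142 FPKM in Tomato-positive and 74.3 FPKM in Tomato-negative cells. Without Trbc1 and Trbc2 the direction of the sums turned, to 19.7 FPKM in Tomato-positive and 49.3 FPKM in Tomato-negative cells. Of the keratinocyte markers 7 of 10 were called higher (70.0%, against 13.0% of all tested genes) and none lower (against 14.2%). The other 3, Cdh1, Dsp and Perp, did not pass and are named after their values were seen. Dsp and Perp read higher in Tomato-positive cells, while Cdh1 stood at 85.3 FPKM in Tomato-positive and 96.3 FPKM in Tomato-negative cells. Krt14, with the largest log2 fold of this list, stood at 13864.5 FPKM in Tomato-positive and 2292 FPKM in Tomato-negative cells. The part of each cell type in the members' values was not tested.

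**Figure D5:**
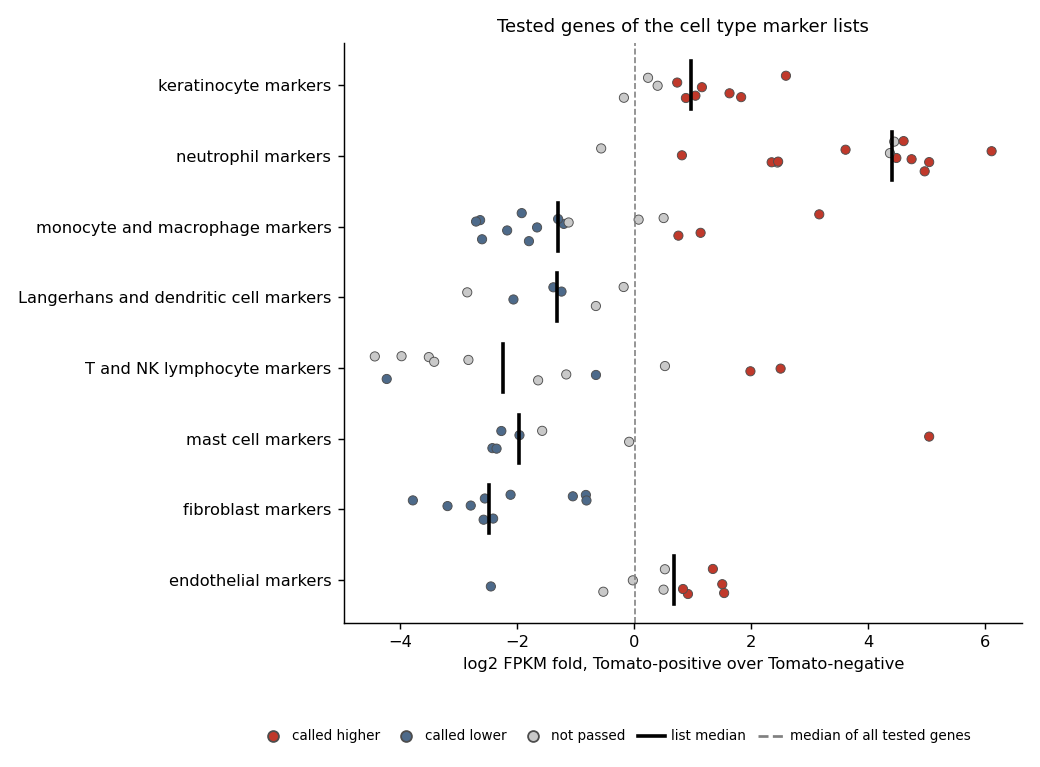
Log2 FPKM fold, Tomato-positive over Tomato-negative, of the tested genes of 8 cell type marker lists above 0 in both fractions, with 1 point per gene coloured by its call, a black bar at each list median and a dashed line at the median of all tested genes. Medians run from -2.48 for fibroblast markers to 4.41 for neutrophil markers.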

How the data were processed

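RNA of EpCAM-positive oral tumour cells was measured in 4 samples, 2 Tomato-positive and 2 Tomato-negative. The submitters' processing notes name TopHat, Cuffdiff and the build mm9. Tool versions, annotation and strand setting were not given in the sources used here. The deposited table has, per the file headers, 1 FPKM value for each gene in each fraction, a log2 fold, a test statistic (a score, not used), and a p-value and q-value from the authors' own test. No values per sample were used, so the depth is unknown and no SD is given. Of 37574 genes the authors tested 16219; another 21023 stayed untested, 330 lacked data and 2 exceeded the fragment limit.

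The log2 fold was recomputed from both FPKM values, since 2111 cells of the deposited log2 fold hold a spreadsheet error. The 4239 rows with small RNA symbols took 38.2% of all FPKM in Tomato-positive and 36.4% in Tomato-negative cells, and FPKM is inflated for short transcripts. Coordinates are mm9 as deposited. Of the tested genes 6802 share a deposited locus with another gene, and such a locus can be wider than the gene. Symbols were matched by name or older symbol, and 15 of the 17 T and NK lymphocyte markers were found.

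The members and the 12 lists were chosen with earlier results of these data known. All members are named. In each pathway list, up to 4 called genes with the largest log2 folds in each direction and at least 1 FPKM, and the 2 most abundant that did not pass, are named. In marker lists the 2 most abundant are named, except 1 gene that is not reported here, with others given as values. Lists are described by counts and medians of tested genes above 0 in both fractions, with no test of the list. The summaries were tested on simulated data and returned the planted counts. The tools were NumPy 2.4.6, pandas 2.3.3, matplotlib 3.10.9 and Python 3.11.15.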

Additional observations from a re-analysis of the deposited data

How the results depend on the processing

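The counts of 3 members called higher and 2 lower were within 1.5 times under q below 0.01, q below 0.1, an unadjusted p below 0.05 (3 lower, with Il1r1), a minimum of 2-fold and a minimum of 1 FPKM. With only the 6 members that share no locus, chosen after seeing the data, 1 was called higher, Il1rn, and 1 lower, Il18. This left out the called members Il1a, Il1b and Il1r2 along with Il1rap, which had not passed. All 10 members kept the sign of their log2 fold in the 50 comparisons. These used a pseudocount of 1 or 0.1, centring on the median of tested genes, scaling that left out small RNA symbols, and the deposited log2 fold. A pseudocount added to both values cannot change a sign, and the deposited log2 fold comes from the same FPKM values. Centring took 0.0163 off every log2 fold and scaling shifted each by -0.0264, while the member log2 fold nearest to no change was -0.19. The kept signs are thus no evidence of robustness. Of 38 alternatives for the pathway lists 3 moved a count: 11 processing genes were lower at an unadjusted p below 0.05, and of the signalling genes 5 were higher at that p and 1 at a minimum of 2-fold. The log2 difference for Il1rn over its agonists was -3.18 with Il1b alone and -0.37 with Il1a alone, and that for Il1r2 over Il1r1 was -1.68 with 1 FPKM added. For 2 marker lists, with genes left out after seeing the data, the log2 fold of the summed FPKM was -1.33 without Trbc1 and Trbc2, against 0.94 with them, for T and NK lymphocytes, and -1.99 without Hdc, against -0.11 with it, for mast cells. The q-values were not computed again, so only their threshold was varied. No paired analysis was possible because the table gives 1 value per fraction, and for the same reason no replicate could be left out.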

Other observations

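By distance in log2 FPKM over the 2 fraction values alone, among 11580 tested protein-coding genes, the 3 genes nearest to Il1b were Pthlh, a parathyroid hormone-like peptide (125 FPKM in Tomato-positive and 6.61 FPKM in Tomato-negative cells, distance 0.962), Nt5dc2 (113 FPKM in Tomato-positive and 7.80 FPKM in Tomato-negative cells, distance 1.17) and Fam167a (95.7 FPKM in Tomato-positive and 5.29 FPKM in Tomato-negative cells, distance 1.33). None lay as close to Il1b as the nearest genes did to the other members compared. Nearest to Il1rn were Col17a1, a hemidesmosome collagen (294 FPKM in Tomato-positive and 82.6 FPKM in Tomato-negative cells, distance 0.262), the connexin Gjb6 (distance 0.302) and Sprr2h, a cornified envelope precursor (distance 0.325). Nearest to Il1r2 were Dnase1l2 (48.0 FPKM in Tomato-positive and 180.2 FPKM in Tomato-negative cells, distance 0.138), Eps8l1 (distance 0.157) and Lyz2, a lysozyme of myeloid cells (distance 0.177). A likeness over 2 values is weak, and nothing further is drawn from it.

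Trbc1 and Trbc2, constant segments of the T cell receptor beta chain, were called higher, at 44.7 FPKM in Tomato-positive and 11.3 FPKM in Tomato-negative cells for Trbc1 and at 78.0 FPKM in Tomato-positive and 13.7 FPKM in Tomato-negative cells for Trbc2. The T cell receptor partner Cd3e, named with Cd3d after their values were seen, stood at 0.170 FPKM in Tomato-positive and 1.22 FPKM in Tomato-negative cells and Cd3d at 0.145 FPKM in Tomato-positive and 2.29 FPKM in Tomato-negative cells, and neither passed.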
